A study of Homo sapiens with 24 samples.

Results

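TPC-1, a human papillary thyroid carcinoma line, was profiled 72 h and 48 h after transfection with a non-targeting siRNA (siNT), and the comparison covers what changed in these control wells with time in culture. The 6 arrays, 3 at 72 h and 3 at 48 h, were chosen by their sample titles and are 6 of the 24 arrays of the series. Across the series, TPC-1 and Nthy-ori 3-1, a normal thyroid follicular line made immortal with SV40, received 20 nM of either siNT or siCOPZ1 with Lipofectamine RNAiMAX. COPZ1 encodes zeta-1, a small subunit of the vesicle coat COPI, and siCOPZ1 is an esiRNA, a pool of duplexes, whereas siNT is the Universal Negative Control #1 siRNA. Beside the control wells, the TPC-1 siCOPZ1 wells and the Nthy-ori 3-1 siNT wells at 72 h and 48 h, with 3 wells in each group, are used below. TPC-1 was kept in DMEM with 10% serum and Nthy-ori 3-1 in RPMI medium, so line and medium change together. The labels call the replicates triplicate wells and do not say that they came from separate experiments, so p-values measure only the spread between wells. All values are log2 expression levels, 1 per gene and array, and each change is 72 h minus 48 h. Values of 3 wells are given in the order of wells 1, 2 and 3.

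Cells that divide pass through an S phase, in which the DNA is copied, and a G2 phase and mitosis, in which it is shared out. Transcripts for the S phase machinery are controlled largely through E2F factors, which bind sites near the start of these genes and are held back by the retinoblastoma family when cells leave the cycle. Many genes of G2 and mitosis are instead controlled through a short element called the CHR, and histone mRNAs are made mainly while DNA is copied.

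The promoters of 3 called S phase genes are shown because their windows carry the short motif that E2F factors recognise. DTL encodes the substrate receptor of a ubiquitin ligase that acts during replication, POLE2 a subunit of DNA polymerase epsilon and CHAF1A the large subunit of the chromatin assembly factor CAF-1. Each window runs from 250 bases before to 50 bases after the annotated start, 5′ to 3′ on the gene's strand, from RefSeq on GRCh38.p14. The windows lie at chr1:212035498-212035797 on the plus strand, at chr14:49688165-49688464 on the minus strand and at chr19:4402390-4402689 on the plus strand. Capitals mark the motif TTCCCGC, the related motif TTCGCGC or the related motif TTGGCGC, searched on both strands.
DTL: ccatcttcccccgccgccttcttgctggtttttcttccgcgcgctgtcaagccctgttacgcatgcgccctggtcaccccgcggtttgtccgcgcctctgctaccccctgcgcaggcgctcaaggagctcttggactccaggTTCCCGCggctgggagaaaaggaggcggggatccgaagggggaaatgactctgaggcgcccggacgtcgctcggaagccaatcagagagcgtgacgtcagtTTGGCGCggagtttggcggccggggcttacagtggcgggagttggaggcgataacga
POLE2: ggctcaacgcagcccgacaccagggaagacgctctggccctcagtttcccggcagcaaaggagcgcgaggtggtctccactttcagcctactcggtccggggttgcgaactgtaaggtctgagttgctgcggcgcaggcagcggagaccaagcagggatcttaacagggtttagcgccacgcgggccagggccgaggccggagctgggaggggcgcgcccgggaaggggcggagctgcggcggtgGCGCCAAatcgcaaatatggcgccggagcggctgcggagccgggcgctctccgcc
CHAF1A: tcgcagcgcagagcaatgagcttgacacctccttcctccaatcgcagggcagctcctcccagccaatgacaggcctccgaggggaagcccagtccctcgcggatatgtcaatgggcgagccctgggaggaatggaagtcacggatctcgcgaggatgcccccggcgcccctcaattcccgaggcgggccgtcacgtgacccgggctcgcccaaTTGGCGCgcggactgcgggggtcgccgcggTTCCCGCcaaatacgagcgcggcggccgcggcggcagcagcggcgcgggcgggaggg
The DTL window holds TTCCCGC 108 bases and TTGGCGC 7 bases before the start. The CHAF1A window holds TTGGCGC 37 bases and TTCCCGC 7 bases before it. The POLE2 window holds TTGGCGC on the opposite strand, 5 bases before the start. A match describes the letters of the window and is not evidence of binding.

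The 6 arrays correlated at 0.959 to 0.984 across genes, and their medians lay between 6.63 and 6.69. By correlation, the 48 h well 1 lay nearer to the 72 h wells than to the other 48 h wells. It also lay near the 72 h wells in the S phase list given below, but with the other 48 h wells in genes such as EIF2S3 and MMP2. Both genes were chosen among called genes whose wells did not overlap, which places the 48 h well 1 on the 48 h side in advance. Whether it was mislabelled was not tested, a doubt that touches every 48 h mean and call below. The 48 h well 1 correlated at 0.983, 0.982 and 0.984 with the 72 h wells, against 0.971 and 0.981 with the 48 h wells 2 and 3. Each 72 h well correlated least with the 48 h well 2, at 0.959, 0.971 and 0.965, and that well correlated at 0.982 with the 48 h well 3. For the 72 h well 2 the values were 0.982 and 0.980 with the 48 h wells 1 and 3. With the 72 h wells 1 and 3 they were 0.977 and 0.983. COPZ1 had values of 11.07, 11.15 and 11.15 at 72 h, against 11.17, 11.02 and 11.13 at 48 h (log2 change 0.02, adjusted p = 0.982). PAX8, the thyroid transcription factor, averaged 12.4 ± 0.013 at 72 h and 12.2 ± 0.19 at 48 h (SD, n = 3 each), and KRT18, an epithelial keratin, averaged 8.85 ± 0.18 at 72 h and 8.99 ± 0.22 at 48 h. The thyroid markers TSHR and SLC5A5 and the epithelial markers CDH1 and EPCAM averaged under 5.51, the limit of the dimmest tertile of genes, at both times. None of the 31 marker genes of thyroid, epithelial, mesenchymal, blood, endothelial or C cells was called. The summed log2 level of the 6 blood cell markers ranged over 25.4 to 27.6 at 72 h and 25.5 to 26.8 at 48 h. In these bulk samples, fewer cells of a kind and less RNA per cell cannot be told apart.

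Between 48 h and 72 h, 29 of 46 genes of DNA replication and 25 of 45 genes of mitosis fell in the TPC-1 control wells, and few genes rose. Of 18632 genes tested, 391 (2.10%) were called at an adjusted p below 0.05 in a limma model of all 24 arrays, 335 lower (1.80%) and 56 higher (0.301%) at 72 h. Of these, 168 were at least 2-fold lower and 18 at least 2-fold higher. The median change over all genes was 0.00. All 72 h wells lay below all 48 h wells for 1613 genes (8.66%) and above them for 1394 (7.48%). Among the called genes, 280 lower and 52 higher ones had wells that did not overlap, and 59 had wells that did.

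These counts rested on single wells and on the arrays that shared the estimate of spread. Without the 48 h well 1, 1802 genes were called, and without the 48 h well 2 only 10 were, all of them among the 391. Without the 48 h well 3 the count was 47, and without 72 h well 1, 2 or 3 it was 56, 446 and 30. When only the 6 arrays were fitted, 0 genes passed the adjusted threshold, with 1944 at an unadjusted p below 0.05, against 3250 in the fit of all arrays. With the 12 TPC-1 arrays 1 gene passed, MMP2. Of the 11 falls and 12 rises reported below as the largest with separated wells, only EIF2S3 and FANCI among the falls and PAPLN and MMP2 among the rises were called in each of the 6 fits that left out 1 well. Separated wells were a condition for choosing these falls and rises, so their separation adds no support. The falls include CDC6, MCM10, POLE2, CCNE2 and MAD2L1. The calls, and each SE given below, drew on a spread shared with quieter groups. An SE is therefore not the spread of the 6 wells printed beside it. For the S phase genes, the median SD between wells in TPC-1 siNT was 0.416 for 72 h and 0.658 for 48 h, against 0.120 for 72 h and 0.0978 for 48 h in Nthy-ori 3-1 siNT.

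**Figure D1:**
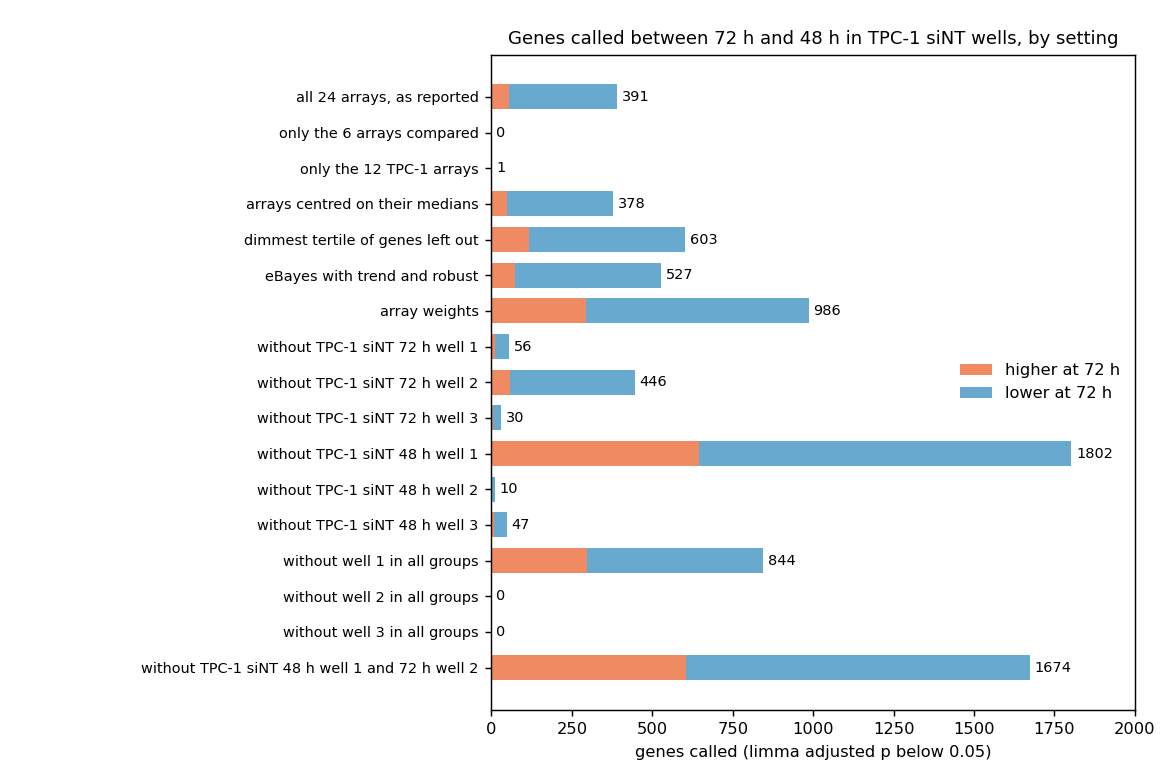
Number of genes called between 72 h and 48 h in TPC-1 siNT wells (x axis) by setting (y axis), split into genes higher and lower at 72 h. Settings with a replicate block, which called 753 and 1128 genes, are not drawn. The count was 391 with all arrays, 1802 without the 48 h well 1, 10 without the 48 h well 2, and 0 when only the 6 arrays were fitted.

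All 46 measured genes of the DNA replication and S phase list had lower means at 72 h, and 29 of them fell, against 1.80% of all genes called lower. That share also stands beside the smaller groups of the list below. The median change of the list was -1.07. The mean level of the list was 7.65, 8.23 and 7.60 at 72 h, against 8.19, 9.37 and 9.13 at 48 h. The 48 h wells 2 and 3 lay far above all others, whereas the 48 h well 1 lay just below the 72 h well 2, so the groups overlapped. Without the 48 h well 1 the median was -1.46 with 41 called, and without the 48 h well 2 it was -0.86 with 0 called. By well number, the list mean was -0.54, -1.14 and -1.52 at 72 h relative to 48 h.

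Among 16 genes of origin licensing and the replicative helicase, 11 fell (median -1.21). CDC6, which loads the helicase onto origins, had values of 9.58, 10.38 and 9.37 at 72 h, against 10.57, 11.93 and 11.66 at 48 h (log2 change -1.61, SE 0.31, adjusted p = 0.0136). MCM10, which helps to fire origins, had values of 7.62, 8.47 and 7.12 at 72 h, against 8.49, 10.02 and 9.91 at 48 h (log2 change -1.73, SE 0.33, adjusted p = 0.0136). In both genes the 3 wells at 72 h lay below the 3 at 48 h, with the 48 h well 1 nearest to them. MCM2, a subunit of the helicase, had values of 8.22, 8.54 and 7.95 at 72 h, against 8.37, 9.39 and 9.59 at 48 h and was not called (log2 change -0.88, adjusted p = 0.0753), and its 48 h well 1 lay below the 72 h well 2. GINS2, MCM6 and ORC6 were called, at -1.44, -1.33 and -1.39, and CDC45 was not, at -0.48.

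Of 13 polymerase, primase, clamp and clamp loader genes, 9 fell (median -1.06). POLE2, whose promoter is printed above, had values of 6.12, 5.51 and 5.54 at 72 h, against 6.78, 8.03 and 7.74 at 48 h (log2 change -1.79, SE 0.31, adjusted p = 0.00843), a 3.47-fold lower level at 72 h with no overlap. RFC4, a clamp loader subunit, and PRIM1, the catalytic subunit of primase, fell by 1.37 and 1.26 on the log2 scale. PCNA, the sliding clamp, fell by 1.08, although its wells overlapped, and POLD1 had a change of -0.41 that was not called. Of 5 genes of nucleotide supply, RRM1, RRM2 and TYMS fell, by 1.21, 1.43 and 1.06, while TK1 had a change of -0.92 and was not called.

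Of 12 S phase regulators and chromatin assembly factors, 6 fell (median -1.17). CCNE2, cyclin E2, had values of 7.48, 7.81 and 6.77 at 72 h, against 7.98, 10.33 and 9.42 at 48 h (log2 change -1.89, SE 0.39, adjusted p = 0.0196). Its 48 h well 1 lay only slightly above the 72 h well 2, and the other 48 h wells were far higher. DTL had values of 8.35, 9.12 and 8.25 at 72 h, against 9.29, 10.74 and 10.43 at 48 h (log2 change -1.58, SE 0.27, adjusted p = 0.00843). CHAF1A had values of 7.33, 7.92 and 6.82 at 72 h, against 8.34, 8.84 and 8.78 at 48 h (log2 change -1.29, SE 0.23, adjusted p = 0.00857). Neither gene's wells overlapped. DSCC1, part of a clamp loader needed for sister chromatid cohesion, had values of 5.96, 6.26 and 5.91 at 72 h, against 7.04, 7.87 and 7.55 at 48 h (log2 change -1.44, SE 0.23, adjusted p = 0.00569), and it was called in 5 of the 6 fits that left out 1 well. E2F1 and CCNE1, also of this group, had changes of -0.73 and -0.47 and were not called.

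Of 45 genes of G2 phase and mitosis, 25 fell and 44 were lower on average (median -1.07). Of all genes, 1.80% were called lower, a share that also stands beside the smaller groups of this list below. The mean level of the list was 8.25, 9.33 and 8.54 at 72 h, against 9.20, 10.16 and 9.85 at 48 h. The 72 h well 2 lay above the 48 h well 1, and the other wells kept the order of the times. By well number, the difference was -0.95, -0.83 and -1.31. The median was -1.34 with 40 called without the 48 h well 1, and -0.86 with 0 called without the 48 h well 2.

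Of 15 cyclins, mitotic kinases and their regulators, 9 fell. CCNA2, cyclin A2, had values of 9.17, 10.01 and 9.30 at 72 h, against 10.21, 11.19 and 10.89 at 48 h (log2 change -1.27, SE 0.25, adjusted p = 0.0137), with all 72 h wells below all 48 h wells. CCNB1, cyclin B1, had values of 8.17, 9.36 and 8.92 at 72 h, against 9.31, 10.98 and 10.25 at 48 h (log2 change -1.37, SE 0.34, adjusted p = 0.0392), and its 72 h well 2 lay just above the 48 h well 1. CDK1, their kinase partner, fell by 1.06, and the kinases PLK1 and AURKB had changes of -0.53 and -0.81 that were not called. Of 8 genes of the spindle checkpoint and anaphase exit, 3 fell. MAD2L1, which holds back anaphase until chromosomes are attached, had values of 6.62, 7.14 and 6.92 at 72 h, against 7.75, 9.66 and 8.56 at 48 h (log2 change -1.76, SE 0.33, adjusted p = 0.0123). BUB1B, of the same checkpoint, had values of 8.81, 9.58 and 8.90 at 72 h, against 9.78, 10.64 and 10.40 at 48 h (log2 change -1.17, SE 0.23, adjusted p = 0.0136). The wells of both were separated by time. PTTG1, securin, was the one gene of the list with a higher mean at 72 h, at 0.08, and was not called.

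The outer kinetochore gene SPC25 and the motor CENPE fell by 1.57 and 1.03, 2 of the 3 called among 6 kinetochore genes. Of 14 genes of spindle motors, spindle and cytokinesis, 10 fell, among them KIF11 at -1.20, PRC1 at -1.09 and ANLN at -0.97. HMMR, a spindle-associated hyaluronan receptor, had values of 8.08, 9.23 and 8.08 at 72 h, against 9.33, 10.16 and 9.61 at 48 h (log2 change -1.24, SE 0.25, adjusted p = 0.0174). The 72 h well 2 lay just below the 48 h well 1. The proliferation markers MKI67 and TOP2A were not called. MKI67, which coats mitotic chromosomes, had values of 10.38, 11.61 and 10.92 at 72 h, against 11.34, 11.56 and 11.85 at 48 h (log2 change -0.62, adjusted p = 0.144). TOP2A, which untangles DNA, had values of 10.75, 11.58 and 10.75 at 72 h, against 11.34, 12.23 and 11.91 at 48 h (log2 change -0.80, adjusted p = 0.123). In both, the 72 h well 2 reached into the 48 h range.

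**Figure D2:**
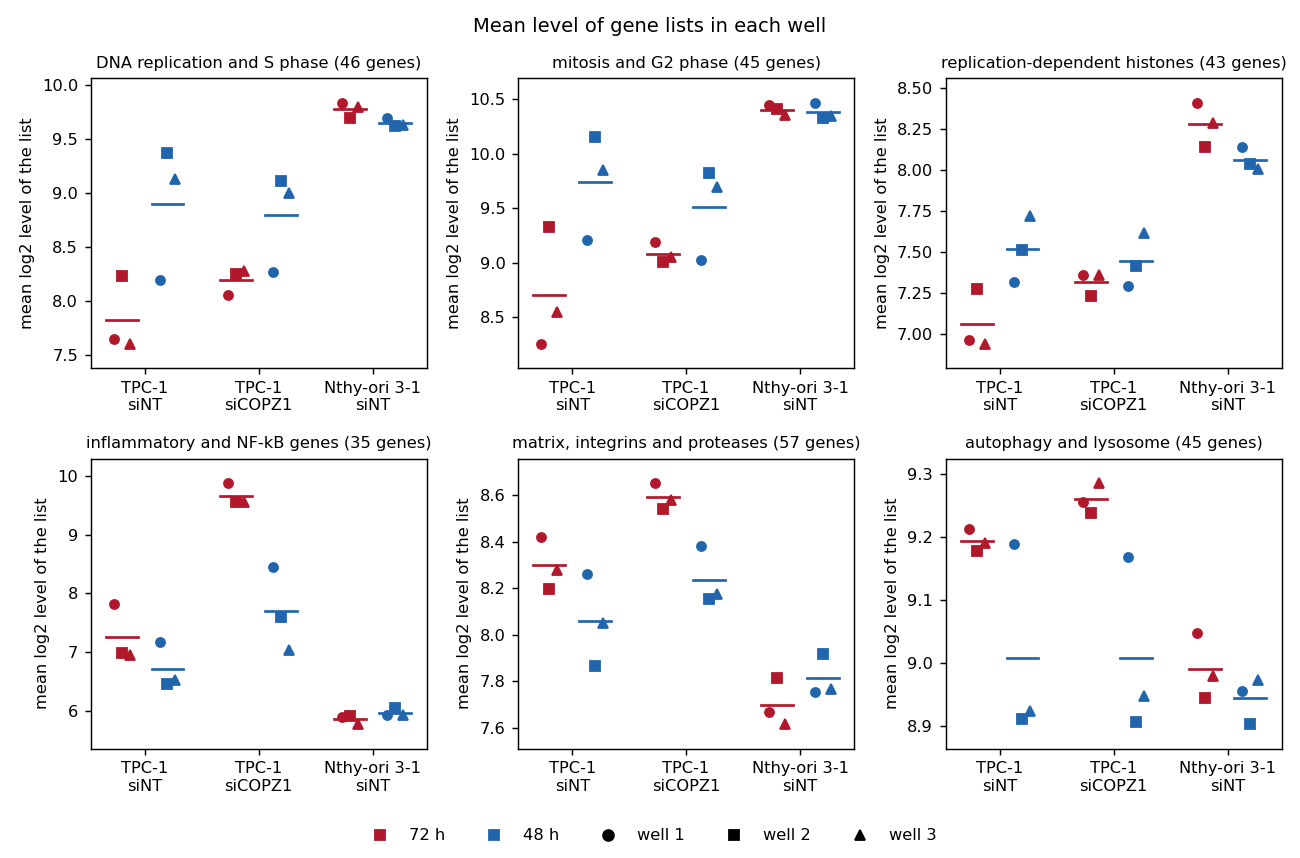
Mean log2 level of 6 gene lists (y axis) in each well of TPC-1 siNT, TPC-1 siCOPZ1 and Nthy-ori 3-1 siNT, with 72 h in red and 48 h in blue; the marker shape gives the well number and the line the mean of 3 wells. In TPC-1 siNT the S phase list had means of 7.65, 8.23 and 7.60 at 72 h, against 8.19, 9.37 and 9.13 at 48 h, with the 48 h well 1 nearest to the 72 h wells, whereas the Nthy-ori 3-1 wells lay close together.

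Of 43 replication-dependent histone genes, 10 fell and 33 were not called (median -0.47), against 1.80% of all genes called lower. The list mean was 6.96, 7.27 and 6.94 at 72 h, against 7.32, 7.51 and 7.72 at 48 h, and the 72 h wells all lay below the 48 h wells. HIST1H2BL had values of 6.35, 6.91 and 6.31 at 72 h, against 7.39, 7.95 and 8.08 at 48 h (log2 change -1.28, SE 0.18, adjusted p = 0.0024) and was called in all 6 fits that left out 1 well. HIST1H2BH had values of 4.86, 5.90 and 5.46 at 72 h, against 6.62, 7.23 and 6.44 at 48 h (log2 change -1.35, SE 0.24, adjusted p = 0.00843). HIST1H3H had values of 4.35, 5.53 and 5.16 at 72 h, against 6.44, 6.48 and 6.41 at 48 h (log2 change -1.43, SE 0.28, adjusted p = 0.014), and HIST1H2AI fell by 1.27. None of these 4, chosen for the smallest adjusted p-values among the called members, had overlapping wells. Over the list, all 72 h wells lay below all 48 h wells for 15 genes and above them for 1. Of all genes, 8.66% lay below and 7.48% above. Histone genes of one class are near-identical copies whose transcripts can bind the same probes, so which copy changed is uncertain. The mRNAs also lack the poly(A) tail, and how that bears on these levels was not tested. Without the 48 h well 1, 16 fell and 1 rose, and without the 48 h well 2, 1 fell.

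The largest called falls also held genes outside those lists. ESCO2, which acetylates cohesin in S phase, had the largest fall, with values of 3.52, 5.13 and 4.87 at 72 h, against 6.06, 7.09 and 6.81 at 48 h (log2 change -2.15, SE 0.44, adjusted p = 0.0188), and its 72 h wells all lay under 5.51. EIF2S3, the gamma subunit of the translation initiation factor eIF2, had values of 6.70, 7.31 and 6.64 at 72 h, against 8.47, 8.91 and 8.44 at 48 h (log2 change -1.72, SE 0.24, adjusted p = 0.0024). Its 48 h wells lay close together, and the 48 h well 1 did not approach the 72 h wells. FANCI, a partner of FANCD2 in the repair of DNA crosslinks, had values of 7.70, 8.23 and 7.50 at 72 h, against 8.90, 9.99 and 9.53 at 48 h (log2 change -1.67, SE 0.24, adjusted p = 0.0024). CENPK, of the inner kinetochore, had values of 6.90, 7.63 and 7.23 at 72 h, against 7.98, 9.51 and 9.17 at 48 h (log2 change -1.64, SE 0.27, adjusted p = 0.00737). In FANCI and CENPK all 72 h wells were lower than all 48 h wells, which was a condition for being named among the largest falls. WDR76, a WD repeat protein, and FAM111B, a protease, fell by 1.65 and 1.62.

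**Figure D3:**
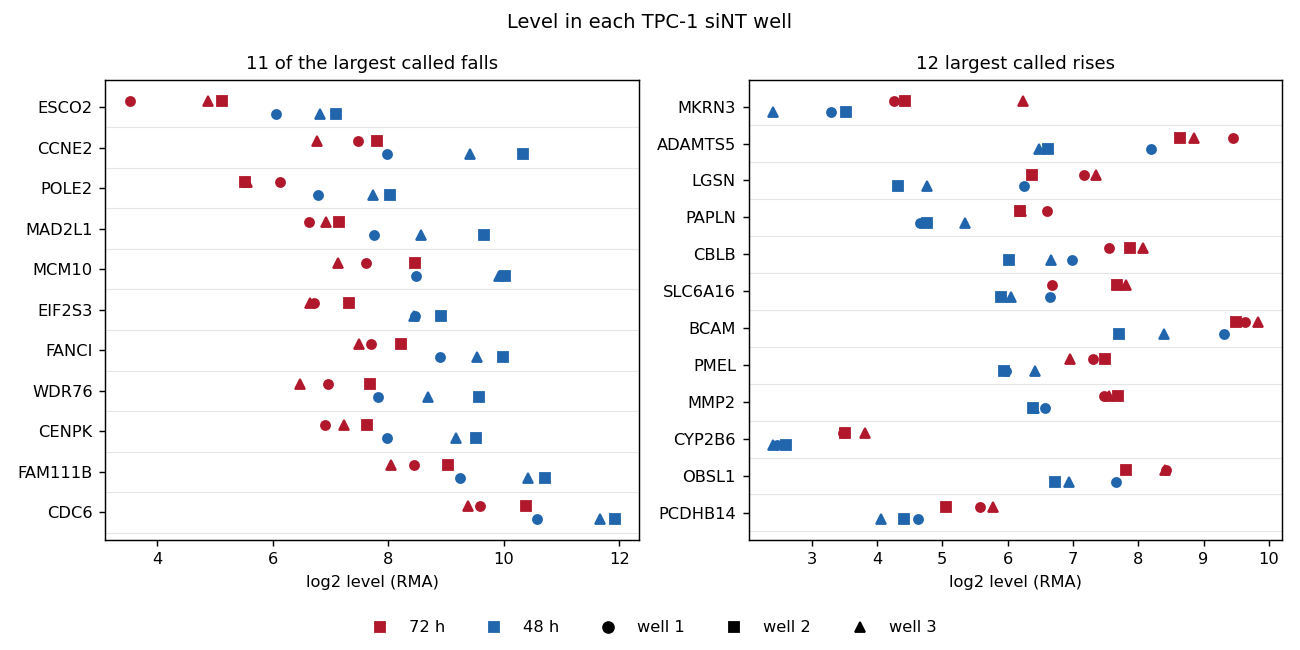
Log2 level (x axis) in each TPC-1 siNT well of 11 of the largest called falls (left) and the 12 largest called rises (right) whose wells did not overlap, with 72 h in red above 48 h in blue and the marker shape giving the well number. In most genes on the left, such as CDC6, the 48 h well 1 lay nearest to the 72 h wells; EIF2S3 and MMP2 had closely grouped wells at 48 h.

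Several gene families were gathered after their values had been seen, so their counts are descriptions, set against 1.80% of all genes called lower. Of 19 genes named CENP, 9 fell (median -0.97), including CENPH at -1.38 and CENPP at -1.35. Condensin, which compacts chromosomes, had 6 of 8 genes called lower, with NCAPH at -1.30, although its wells overlapped, and SMC2 at -1.24. The augmin complex of spindle microtubules had 4 of 8 called lower, with HAUS3 at -1.44 and HAUS8 at -1.41. Of 26 genes of the Fanconi anaemia and homologous recombination pathways, 12 fell, with BRCA1 at -1.44, BRCA2 at -1.46 and FANCD2 at -1.41. The wells of BRCA2 and of FANCD2 overlapped. Of 14 cohesin genes, ESCO2 fell, as did SGO2 with overlapping wells. The core subunits SMC1A, SMC3 and RAD21 had changes of -0.59, -0.41 and 0.10 and were not called. Of 21 nuclear pore genes, 6 fell, such as NUP107 at -1.12 and NUP155 at -1.06. Among 8 E2F factors, E2F8, a repressor of the family, fell by 1.41, and the other 7 were not called. Of 10 chaperonin genes, HSPD1 and CCT5 fell, by 1.01 and 0.66.

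Fewer genes rose, and no list held more than 3 of them. The matrix, integrin and protease list had 3 of 57 members higher and 0 lower (median 0.20), against 0.301% of all genes called higher. MMP2, gelatinase A, had values of 7.48, 7.70 and 7.56 at 72 h, against 6.57, 6.39 and 6.40 at 48 h (log2 change 1.13, SE 0.17, adjusted p = 0.00319). Its wells were tightly grouped within each time, and it was called in 15 of 18 alternatives. LAMB1, the beta 1 chain of laminin, had values of 11.15, 11.36 and 11.25 at 72 h, against 10.98, 10.37 and 10.52 at 48 h (log2 change 0.63, SE 0.16, adjusted p = 0.0482). COL12A1, a collagen that binds fibrils, had values of 11.32, 11.07 and 11.20 at 72 h, against 10.79, 10.54 and 10.48 at 48 h (log2 change 0.60, SE 0.15, adjusted p = 0.0485). Both had separated wells with adjusted p-values just under the threshold. MMP1, interstitial collagenase, and the integrin ITGA6 had changes of -1.08 and -0.99 and were not called (adjusted p = 0.0536 and 0.0508). Without the 48 h well 1, 9 members rose and 2 fell, and without the 48 h well 2, 1 rose.

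ADAMTS5, an aggrecan-cleaving protease, had values of 9.45, 8.64 and 8.85 at 72 h, against 8.19, 6.62 and 6.48 at 48 h (log2 change 1.89, SE 0.44, adjusted p = 0.0317). The 48 h well 1 lay well above the other 48 h wells. PAPLN, papilin, a matrix glycoprotein, had values of 6.61, 6.18 and 6.20 at 72 h, against 4.65, 4.76 and 5.35 at 48 h (log2 change 1.41, SE 0.20, adjusted p = 0.0024). BCAM, a laminin receptor, had values of 9.64, 9.50 and 9.84 at 72 h, against 9.31, 7.70 and 8.40 at 48 h (log2 change 1.18, SE 0.29, adjusted p = 0.0402), and here too the 48 h well 1 was close to the 72 h wells. CBLB, a ubiquitin ligase that restrains receptor signalling, had values of 7.56, 7.88 and 8.08 at 72 h, against 6.99, 6.02 and 6.67 at 48 h (log2 change 1.28, SE 0.23, adjusted p = 0.00887). LGSN, lengsin, rose by 1.85, SLC6A16, an orphan transporter, by 1.19, PMEL, a melanosome protein, by 1.14 and OBSL1, a cytoskeletal adaptor, by 1.11. The largest rise by mean among genes with separated wells was MKRN3, a ubiquitin ligase, with values of 4.26, 4.42 and 6.24 at 72 h, against 3.30, 3.52 and 2.41 at 48 h (log2 change 1.90, SE 0.44, adjusted p = 0.0292). Its level was under 5.51 in all wells except the 72 h well 3. CYP2B6 and PCDHB14, which rose by 1.11 and 1.10, averaged under 5.51 at both times. LGSN was among the dimmest tertile of genes by its mean over the series. SLC14A1, a urea transporter chosen after its values were seen, had the largest called change of all, with values of 10.64, 9.16 and 10.19 at 72 h, against 9.16, 5.85 and 7.10 at 48 h (log2 change 2.63, SE 0.68, adjusted p = 0.0485). Its 72 h well 2 and 48 h well 1 were level, so its wells overlapped.

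Inflammatory and NF-kB genes had the highest median of the lists, 0.53 over 35 genes, and 0 were called, with 31 of 35 higher on average. The list mean was 7.83, 6.98 and 6.94 at 72 h, against 7.17, 6.46 and 6.52 at 48 h. Well 1 was the highest at each time, and the 48 h well 1 lay above the 72 h wells 2 and 3. By well number, the list mean differed by 0.66, 0.52 and 0.42. CXCL8, a neutrophil chemokine, had values of 10.17, 7.30 and 7.14 at 72 h, against 8.49, 5.24 and 4.85 at 48 h (log2 change 2.01, SE 0.88, adjusted p = 0.238). IL6, an inflammatory cytokine, had values of 9.68, 8.21 and 8.00 at 72 h, against 8.63, 6.99 and 7.17 at 48 h (log2 change 1.03, adjusted p = 0.414). CXCL1, a related chemokine, had a change of 1.60 with an adjusted p of 0.164. In each of the 3 genes well 1 was the highest of its time. TNFAIP2, induced by TNF, had values of 10.36, 10.51 and 10.02 at 72 h, against 9.88, 9.30 and 9.84 at 48 h, separated by time, with an adjusted p of 0.176. Without the 48 h well 1, 5 of the 35 genes rose (median 0.64).

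The list of CDK inhibitors and quiescence genes had a median of 0.26, and 0 of 29 were called. CDKN1A, the inhibitor p21, had values of 7.03, 6.58 and 6.49 at 72 h, against 7.05, 6.33 and 6.23 at 48 h (log2 change 0.16, adjusted p = 0.828), and the wells overlapped. CDKN1B, the inhibitor p27, had a change of -0.15, with wells under 5.51 that were separated by time. BCL6 and FOXO4, transcription factors linked to cell cycle exit, had changes of 0.63 and 0.66 with overlapping wells, and TXNIP had one of 0.60; none was called. Among immediate early factors 0 of 27 were called, with JUND at 1.13, JUNB at 0.88, FOS at 0.66 and EGR1 at 1.26. EGR1 had values of 11.05, 11.81 and 10.85 at 72 h, against 9.36, 9.43 and 11.15 at 48 h, so its 48 h well 3 lay above 2 of the 72 h wells. Of 30 p53 targets 0 were called.

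The autophagy and lysosome list had a median of 0.22 with 0 of 45 called. Its mean was 9.21, 9.18 and 9.19 at 72 h, against 9.19, 8.91 and 8.92 at 48 h, so the 48 h well 1 lay among the 72 h wells, and without that well 12 members rose and 3 fell. CTSA, a lysosomal carboxypeptidase, had values of 11.68, 11.54 and 11.65 at 72 h, against 11.39, 10.35 and 10.97 at 48 h (log2 change 0.72, adjusted p = 0.0512). Among 35 lysosomal hydrolases and granulin, gathered after values had been seen, IDUA, LGMN and GRN rose, by 1.10, 0.77 and 0.87 (median 0.38). Of all genes, 0.301% were called higher. Other lists held 1 or 2 calls, where 1.80% of all genes were called lower. HSPD1, the mitochondrial chaperonin, and HSPA4L fell among 20 heat shock genes, at -1.01 and -0.94. Of 72 cytosolic ribosomal protein genes 1 fell, RPS29 at -1.44, a share no higher than that of all genes, and the list's median was -0.05. NDUFB3 of complex I and ATP5G1 of the ATP synthase fell by 0.52 and 0.96 among 48 oxidative phosphorylation genes.

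GCLM, the modifier subunit of the enzyme that limits glutathione synthesis, fell by 0.63 among 28 NRF2 targets and metallothioneins, and its partner GCLC had a change of -0.59 that was not called. ARNTL2, a clock factor, fell by 0.82, and HLF, a clock-linked factor, had a change of 0.68 that was not called. STAT2, a mediator of interferon signalling, rose by 0.92 (adjusted p = 0.0483) among 56 interferon-stimulated genes, where 0.301% of all genes were called higher. IFIT1 and ISG15 had changes of -0.07 and -0.02. Sterol synthesis, fatty acid synthesis, the integrated stress response, ER chaperones, hypoxia and glycolysis, MAPK output, YAP targets, TGF-beta response, the COPI coat and Golgi, junctions and thyroid identity had 0 calls each, with medians between -0.10 and 0.23. ASNS, asparagine synthetase, had the widest change there that was not called, with values of 6.64, 7.62 and 7.03 at 72 h, against 8.22, 9.01 and 8.23 at 48 h (log2 change -1.39, adjusted p = 0.125).

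**Figure D4:**
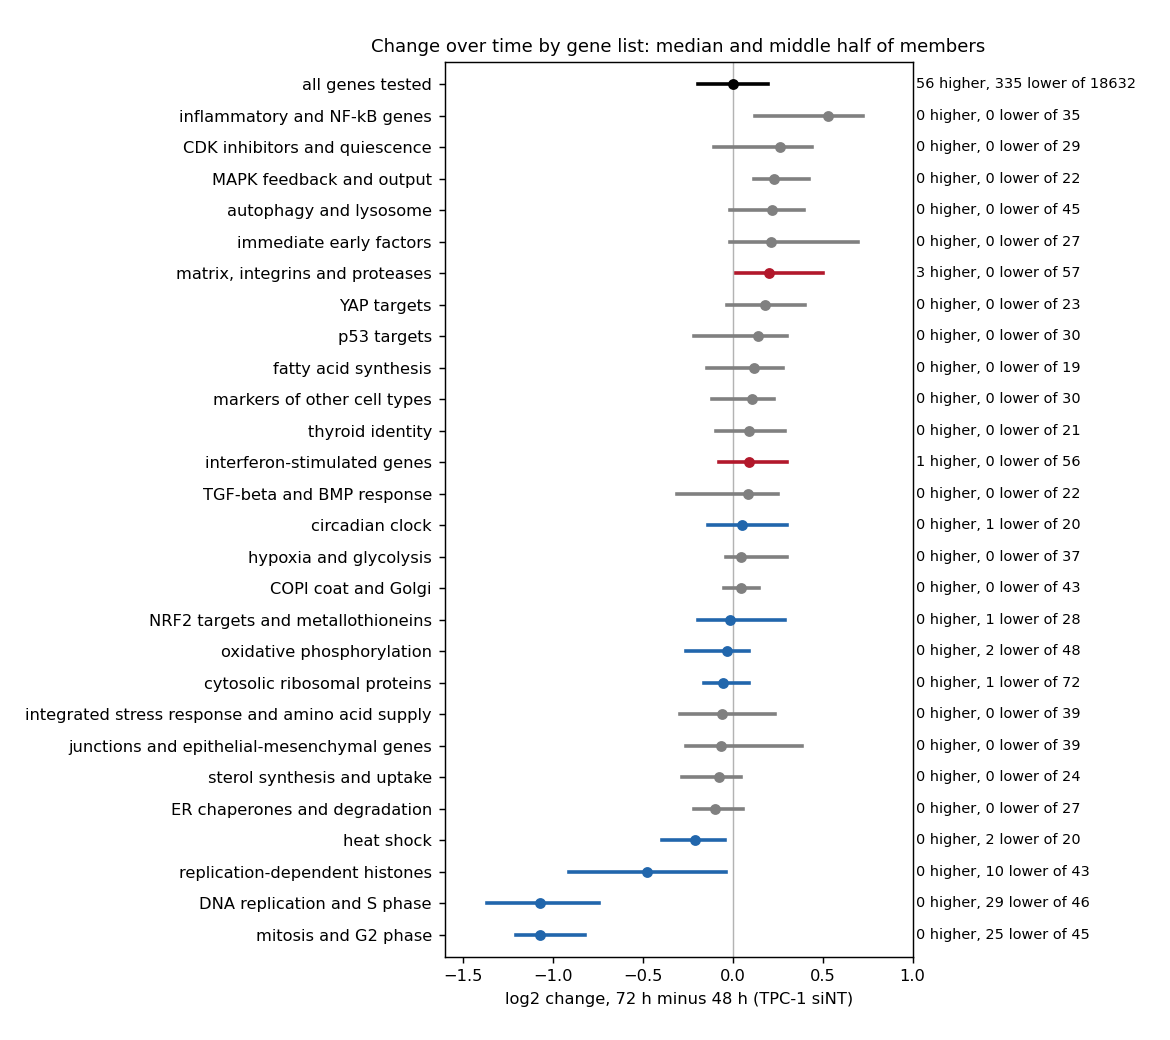
Log2 change between 72 h and 48 h in TPC-1 siNT (x axis) for all genes tested and for 27 lists (y axis), with the median as a point, the range between quartiles as a line and the called members at the right; blue marks lists with called falls, red lists with called rises only. The S phase and mitosis lists had medians of -1.07 and -1.07, against 0.00 for all genes.

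The promoter windows of the called genes were searched for the same 3 E2F motifs, which stood on either strand in 30.0% of 370 windows of genes called lower, against 13.9% of 20884 windows of 14744 genes of the table. The share was 68.6% of 51 windows of the S phase list and 21.7% of 46 windows of the mitosis list. The CHR letters, TTTGAA or else TTTAAA, on either strand, stood in 31.4% of the windows of genes called lower and in 20.0% of all windows. They stood in 82.6% of the mitosis windows and 13.7% of the S phase windows. In the 68 windows of genes called higher the shares were 7.35% for the E2F letters and 19.1% for the CHR letters. The median GC content was 62.7% in the windows of genes called lower and in all windows, 66.0% in the S phase windows and 61.3% in the mitosis windows. The shares describe letters in windows, some genes having more than 1 window, and were not tested.

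The same interval in other wells showed how far the change was shared. In TPC-1 siCOPZ1 wells, 1231 genes (6.61%) were called between 72 h and 48 h, 592 higher (3.18%) and 639 lower (3.43%). Of the 335 genes lower in siNT, 37 were also called lower in siCOPZ1, which is 11.04% of the siNT list and 5.79% of the siCOPZ1 list. Of the 335, 302 had a negative change in siCOPZ1, where 10202 of all 18632 genes had one. The median change over all 335 was -1.004 in siNT and -0.38 in siCOPZ1. The 335 genes, like the 56 below, were chosen by their change in siNT, which favours a wider median there. Of the 56 genes higher in siNT, 3 were also called higher in siCOPZ1, 5.36% of the siNT list and 0.507% of the siCOPZ1 list. Only 26 of the 56 had a positive change in siCOPZ1, and their median change over all 56 was 0.83 in siNT and -0.02 in siCOPZ1. The S phase list had a median of -0.62 with 4 called lower, and the mitosis list -0.43 with 1 called lower. The S phase mean in siCOPZ1 was 8.06, 8.25 and 8.28 at 72 h, against 8.27, 9.11 and 9.00 at 48 h. As in siNT, the 48 h well 1 lay apart from the other 48 h wells and level with the 72 h wells. In Nthy-ori 3-1 siNT, limma called 0 genes (0%), with 1548 at an unadjusted p below 0.05. This fit used the same shared spread, although the wells differed in spread between the lines. The median SD over all genes was 0.179 at 72 h and 0.163 at 48 h in Nthy-ori 3-1 siNT. In TPC-1 siNT it was 0.208 and 0.241, so the counts of called genes in the lines are not like for like. Of the 335 genes lower in TPC-1 siNT, 146 had a negative change in Nthy-ori 3-1 siNT (median 0.04), against 9614 of all 18632 genes. The S phase and mitosis lists had medians of 0.13 and 0.03 there, and the S phase mean was 9.84, 9.70 and 9.80 at 72 h, against 9.70, 9.62 and 9.62 at 48 h.

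**Figure D5:**
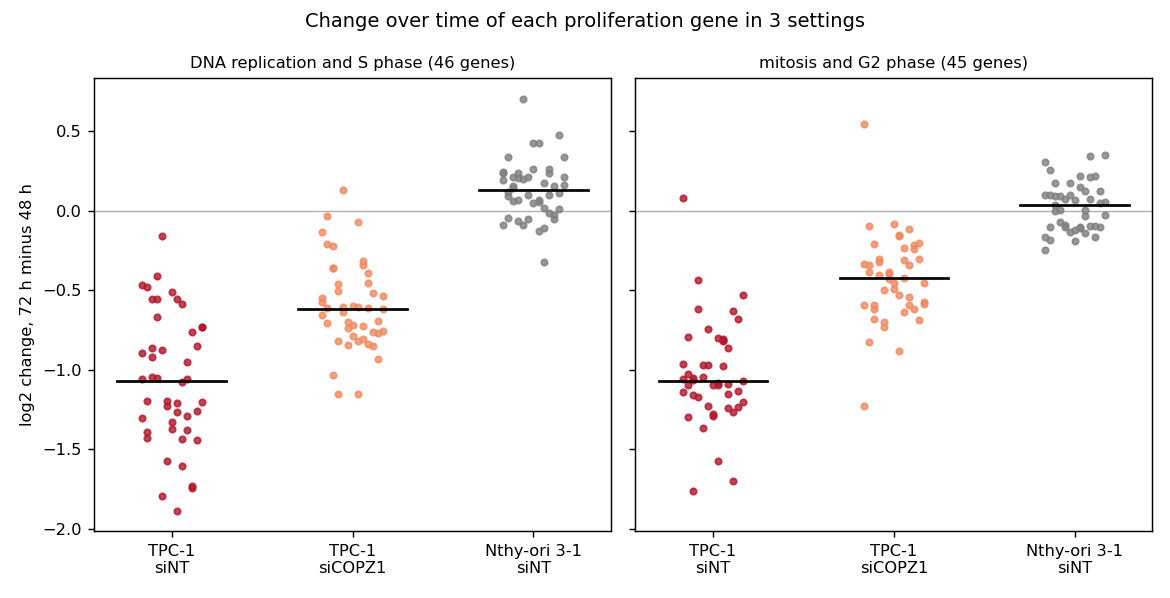
Log2 change between 72 h and 48 h (y axis) of each S phase gene (left) and mitosis gene (right) in TPC-1 siNT, TPC-1 siCOPZ1 and Nthy-ori 3-1 siNT, with 1 point per gene and the median as a line. The S phase medians were -1.07, -0.62 and 0.13, and the mitosis medians -1.07, -0.43 and 0.03.

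The difference between these changes was tested directly. The change in TPC-1 siNT minus that in Nthy-ori 3-1 siNT was called for 10 genes (0.0537%), all lower in TPC-1. They included CENPK, FANCI, EIF2S3, CENPP, NEMP1 and HIST1H2BL, with differences of -2.15, -1.98, -1.89, -1.65, -1.62 and -1.46. CENPK had values of 10.52, 10.32 and 10.35 at 72 h, against 10.05, 9.91 and 9.70 at 48 h in Nthy-ori 3-1, where the 72 h wells all lay above the 48 h wells. No member of the S phase or mitosis list was among the 10, although their median differences were -1.20 and -1.12. The count was 375 without the 48 h well 1 of TPC-1 siNT and 0 when any of its other wells at 48 h, or its 72 h well 1 or 3, was left out, and it was 142 without the 72 h well 2. Leaving out single Nthy-ori 3-1 wells gave 26 genes without the 72 h well 2, 1 gene, none of the 10, without the 48 h well 2, and 0 for each of the other 4.

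The change in TPC-1 siNT minus that in TPC-1 siCOPZ1 was called for 381 genes (2.04%), 206 higher (1.11%) and 175 lower (0.939%), none of them in the S phase or mitosis list. Many of the named genes changed little in siNT wells. HLF had a change of 0.68 in siNT and -2.24 in siCOPZ1, and PLAC8 one of -0.12 in siNT and -2.72 in siCOPZ1. FLG, filaggrin, had changes of 0.01 and -2.51, and SLCO4C1, an organic anion transporter, had 0.51 and -2.26, in siNT and siCOPZ1. In the other direction, SERPINB2, a plasminogen activator inhibitor, had -0.19 in siNT and 6.03 in siCOPZ1, and TNFAIP6, IL24, PTGS2 and IL1A had changes of 0.72, 0.70, 0.20 and 0.53 in siNT, none called, against 5.20, 4.96, 3.95 and 4.14 in siCOPZ1. EIF2S3, which fell in siNT wells, had 8.31, 8.83 and 8.81 at 72 h, against 8.23, 8.60 and 8.12 at 48 h in siCOPZ1 wells, and a difference of -2.06 between the changes. Several of the largest siNT rises also differed, with PAPLN at 1.76, LGSN at 2.34, SLC6A16 at 1.75, BCAM at 1.66 and OBSL1 at 1.25. They were chosen for their rise in the same siNT wells that enter this difference, which favours a positive value.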

How the data were processed

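RNA of 24 wells was measured on Affymetrix whole-transcript arrays, with 1 array per well and 8 groups of 3. The deposited values are log2 expression per gene, made by the authors with RMA, per the submitters' processing notes; RMA sets all arrays to 1 distribution, which removes a change shared by most genes. The array model, the probe definition and the build of the genome were not given in the sources used here. The number of wells and the spread between them limit the precision.

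The table held 18637 genes. Symbols that a spreadsheet had turned into dates (28) were kept by Ensembl identifier, and where a symbol occurred repeatedly (5 symbols) its brightest entry was taken, which left 18632. One mean per group was fitted with limma 3.58.1 in R 4.3.3 (lmFit and eBayes), with 16 residual degrees of freedom, and 72 h minus 48 h was tested two-sided in TPC-1 siNT, as were its differences from the other wells. The Benjamini-Hochberg adjustment of p-values covered all genes, and a gene was called below 0.05. The script was tested on simulated data. With 3 wells against 3, an exact permutation test cannot go below p = 0.1.

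Named genes were the 12 largest called rises and falls whose wells did not overlap, a set always given, and the largest differences between changes. Up to 4 called members of each list with 3 or more called, and 2 members of each other list, were also named. These members had the smallest p-values of their list for the change in TPC-1 siNT, so they are not typical members. A few genes that the rule names are not reported here. Other genes were named to illustrate a list after their values were seen. The 27 lists, the members and the tests were chosen with earlier results of these data known. Alternatives were fits of fewer arrays, leaving out wells, a replicate block, median centring, no dim genes, trend with robust, and array weights. Same-numbered 72 h and 48 h wells correlated at 0.25, 0.20 and -0.01 after group means were removed, so the numbers were not taken to pair the wells. In the other groups such pairs correlated at 0.034 to 0.18. Differently numbered wells correlated at -0.28 to 0.10 in TPC-1 siNT and at -0.16 to 0.012 in the other groups. A pairing by number therefore remains possible, and counts with a replicate block are given below. Promoter windows came from the RefSeq table on GRCh38.p14, matched by symbol.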

Additional observations from a re-analysis of the deposited data

Results flagged for a closer look

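The results here are those in which the change from 48 h to 72 h in TPC-1 siNT wells differed from the same change in other wells, by a limma test of the difference. Against Nthy-ori 3-1 siNT wells, 10 genes differed. The 6 of them that are named above were CENPK (-2.15), FANCI (-1.98), EIF2S3 (-1.89), CENPP (-1.65), NEMP1, a nuclear envelope protein (-1.62), and HIST1H2BL (-1.46), each as a log2 difference between the changes. All were lower at 72 h in TPC-1 siNT and had changes between 0.17 and 0.51 in Nthy-ori 3-1 siNT.

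Against TPC-1 siCOPZ1 wells, 381 genes differed. Where a gene was named for its change in siNT, the same siNT wells enter this difference, which favours a difference of the same sign. Of genes named for their change in siNT, LGSN (2.34), PAPLN (1.76), SLC6A16 (1.75), BCAM (1.66) and OBSL1 (1.25) had a more positive change in siNT. So had SCD5, a fatty acid desaturase (1.13), AJUBA, a LIM protein of the YAP list (0.64), COL12A1 (0.96) and CDH6, a cadherin (2.56). EIF2S3 (-2.06), TNFAIP2 (-1.49) and ARNTL2 (-1.03) had a more negative one. DDIT3, a stress-induced factor from the set always given, also had a more negative one (-1.62). The widest differences were those of HLF (2.92), SLCO4C1 (2.77), PLAC8 (2.60), CDH6 and FLG (2.52) on the positive side, and of SERPINB2 (-6.22), TNFAIP6 (-4.48), IL24 (-4.26), PTGS2 (-3.75) and IL1A (-3.61) on the negative side. TNFAIP2 had changes of 0.63 in siNT and 2.12 in siCOPZ1 wells. All of these differences stem from groups of 3 wells, and the 48 h well 1 lay apart in the S phase list of both TPC-1 groups; ranges of the counts without single wells are given below.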

How the results depend on the processing

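Leaving out wells gave 0 to 1802 called genes for the change in TPC-1 siNT, 0 to 565 for its difference from Nthy-ori 3-1 siNT and 7 to 861 for its difference from siCOPZ1. The upper ends include a setting without both the 48 h well 1 and the 72 h well 2, chosen after seeing the data, which called 1674, 565 and 861. Single wells of TPC-1 siNT gave 10 to 1802, 0 to 375 and 187 to 812, those of siCOPZ1 176 to 362 for the last, those of Nthy-ori 3-1 siNT 0 to 26 for the middle one, and a well number left out in all groups 0 to 844, 0 to 43 and 7 to 332, with 15 when it was well 2. For the change in TPC-1 siNT, the count was 0 with the 6 arrays alone, 1 with the 12 TPC-1 arrays, 603 without the dimmest tertile of genes and 986 with array weights. For the difference from Nthy-ori 3-1 siNT it was 0 with median centring, 28 without the dimmest tertile, 22 with trend and robust fitting, 334 with array weights and 0 with the 12 arrays of that contrast. For the difference from siCOPZ1 it was 77 with its 12 arrays. The causes were not tested. The medians of the S phase and mitosis lists stayed negative in all 18 alternatives. Some of these, such as the fits of only 6 or 12 arrays, cannot change a median, so they add no support. Leaving out 1 well of TPC-1 siNT gave medians of -1.46 to -0.857 for the S phase list. For the mitosis list they were -1.41 to -0.82.

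A replicate block within line and siRNA gave 753 called genes for TPC-1 siNT and 168 for the difference from Nthy-ori 3-1 siNT. A block within line gave 1128, 274 and, for the difference from siCOPZ1, 811. In TPC-1 siNT the 72 h well 3 correlated at 0.027 with the 48 h well 1 and at -0.0089 with the 48 h well 3, so the numbers were not taken as pairs. In the other groups each 72 h well correlated best with the 48 h well of its own number, so a pairing remains possible.

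Some changes that were not called turned sign. With centring COPZ1 had -0.00493 and FLG -0.00876, and with array weights FASN had -0.061 and PLAC8 0.00884. Over the settings that left out wells of TPC-1 siNT, changes that turned sign lay as follows: CDKN1A between -0.00158 and 0.48, COPZ1 between -0.0276 and 0.0461, FASN between -0.209 and 0.294, FLG between -0.0623 and 0.10, HMGCS1 between -0.109 and 0.53, IFIT1 between -0.325 and 0.10, IL1A between -0.216 and 1.68, ISG15 between -0.0923 and 0.059, PLAC8 between -0.341 and 0.17 and SERPINB2 between -0.399 and 0.346. When a well number was left out in all groups, they were COPZ1 between -0.0412 and 0.0741, FASN between -0.269 and 0.357, FLG between -0.129 and 0.133, GFAP between -0.00135 and 0.905, HMGCS1 between -0.263 and 0.389, IFIT1 between -0.281 and 0.0568, ISG15 between -0.146 and 0.118, PLAC8 between -0.361 and 0.101, PTGS2 between -0.00293 and 0.612 and SERPINB2 between -0.335 and 0.0081. IFIT1 had 0.00346 without well 3 in all groups.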
